A study of Mus musculus with 72 samples.

Results

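Dorsal raphe Pet1 neurons with the highest combined RNA of Pou3f2, Emilin2, Bcl11a, Amigo2, Necab1 and Gad1 are described here as 110 single cells, 4.68% of all cells of the droplet table (869 of one barcode ending and 1481 of the other). Each cell's counts were scaled to 10000 and log-transformed, each gene was converted to a z-score over all cells, and the members were chosen by the highest mean z over these 6 genes and compared with all other cells. The cells come from a droplet (10X) experiment that pooled neurons of the full dorsal raphe from mice of 2 genotypes, Pet1::Flpe+/-; hM3Dq+/+ at a mean age of postnatal day 65.5 and En1::cre+/-;Pet1::Flpe+/-;RC::FrePe+/- at a mean of postnatal day 59. Pet1::Flpe marks cells with a history of Pet1 (Fev) expression, and En1::cre adds a requirement for a history of Engrailed expression, so an adult cell need not express Engrailed genes, whereas cells low in Fev were removed before deposit. A second experiment of 70 manually sorted single cells in 8 groups gave cells that the rule did not use. All of these carried Pet1::Flpe+/- and RC::FrePe+/-, with Sert::cre+/- (dorsolateral, dorsomedial, ventromedial and caudal subdomains, postnatal days 63 to 90), P2ry1::cre+/- (caudal, days 62 to 74), Npy2r::cre+/- (caudal and rostral, days 77 to 87) or Crh::cre+/- (rostral, days 83 to 119), and no treatment is labelled. The cre allele marks any cell with a history of the driver's expression.

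Serotonin neurons make serotonin with the enzyme Tph2, load it into vesicles through Slc18a2 and recover it through Slc6a4, and the transcription factor Fev holds this program in place. Many of them also carry genes for a second transmitter, such as the GABA-synthesising enzyme Gad2 or the vesicular glutamate transporter Slc17a8 (VGLUT3), and peptides such as dynorphin. POU-homeodomain and zinc-finger factors like those in the rule are known for specifying neuronal subtypes during development.

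The 10X table gives no animal for a cell, and no label says which barcode ending belongs to which genotype. The table is therefore 1 sample, the endings are called barcode set 1 and barcode set 2, no barcode occurs with both endings, and no test between cells was made. Levels are given as CPM, a gene's UMIs summed over a set of cells and scaled to the same total, log2 ratios compare members with other cells, and 95% intervals cover counting error only. Members made up 3.34% of barcode set 1 (29 cells, exact binomial interval 2.25 to 4.76%) and 5.47% of barcode set 2 (81 cells, 4.37 to 6.75%). Their median depth was 58536.5 UMIs per cell against 59762 in the other cells. Ribosomal protein genes took a median of 9.40% of UMIs in members and 10.1% in other cells, and mitochondrial genes 6.28% and 6.41%. Scrublet called 14 doublets among the other cells and none among the members. The 15 genes of glia, vessels and blood that were in the table summed to 34.3 CPM in members and 37.6 CPM in other cells, with per-cell sums of 0 to 129 CPM in members, and Gfap, Cx3cr1, Csf1r, C1qa, Cldn5 and Flt1 had no UMI in any member.

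The rule's own values are a description only. Between members and other cells, Pou3f2 stood at 96.9 and 5.97 CPM, Emilin2 at 98.1 and 9.45, Bcl11a at 114 and 14.7, Amigo2 at 368 and 84.1, Necab1 at 109 and 7.25, and Gad1 at 262 and 37.7. Scores ran from 1.66 to 3.48 in the members with a median of 2.09, against a median of -0.29 in the other cells. All 6 genes had a UMI in 68 members, and at least 5 in 105. No gap separated the groups: the last 2 members scored 1.663 and 1.661, and the first 2 cells outside 1.641 and 1.636. The rule genes and every gene correlated with them share the cells that chose the members, so the differences below describe the members and test nothing.

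When all cells were clustered, 98 of the 110 members (89.1%, 81.7 to 94.2%) lay in cluster 6, beside 70 other cells. Cluster 13, whose cells outside the members had the lowest Tph2 level of all clusters (669 CPM), held 8 members, and clusters 2 and 5 held 2 each. The other 10 clusters held none. Members were 58.3% of cluster 6 (50.5 to 65.9%) and 5.56% of cluster 13 (2.43 to 10.7%). Clusters were numbered by the mean z of fixed markers, which for cluster 6 are the 6 rule genes themselves. Cluster 5 was numbered by Pdyn, Ret and Col25a1, and cluster 13 by Nfib, Nppc and Bmp3. The cluster number is thus no separate support for the rule. With the 6 genes left out of those used to cluster, 97 members (88.2%) lay in a single cluster. The label therefore covers mostly cells of a single cluster with a small group from a second one.

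**Figure D1:**
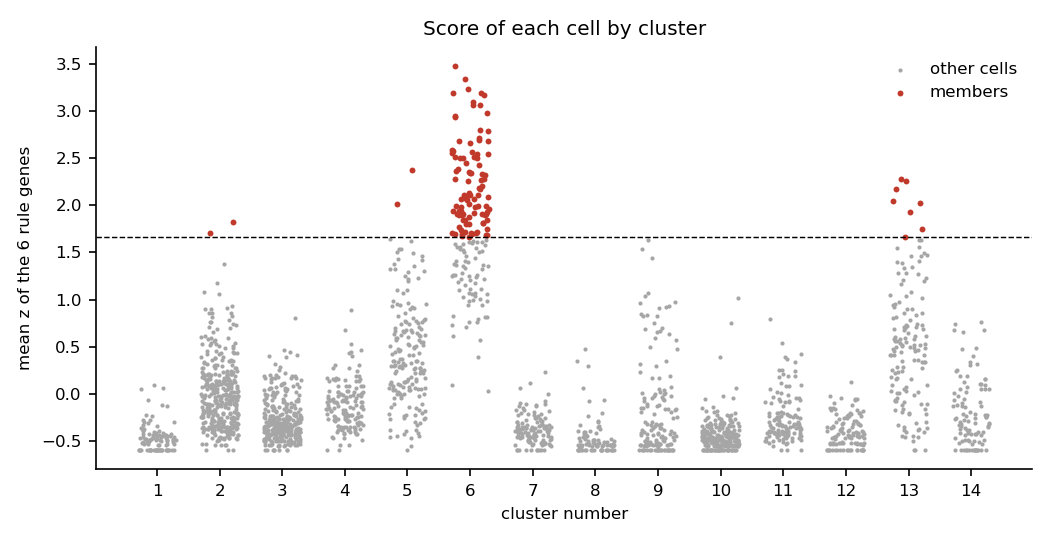
Mean z of the 6 rule genes (vertical axis) for each cell by cluster number (horizontal axis, points spread sideways for visibility), members in red, other cells in grey, and the dashed line at the lowest member score of 1.66. Cluster 6 holds 98 members above the line and 70 cells below it, cluster 13 holds 8 members, and clusters 2 and 5 hold 2 each.

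Serotonin genes were at similar levels in members and other cells. Tph2 was at 2709 CPM in members and 2846 CPM in other cells, or -0.07 on the log2 scale (-0.09 to -0.05). In single members Tph2 ran from 0 to 6566 CPM with a median of 2639, and in other cells the median was 2584. Slc6a4, the plasma membrane serotonin transporter, was at 2685 and 2205 CPM (0.28), and Slc18a2, the vesicular monoamine transporter, at 2560 and 2344 CPM (0.13). The aromatic amino acid decarboxylase Ddc stood at 1047 and 1101 CPM. None of the 13 genes of serotonin synthesis and handling differed by 2-fold, and their median log2 ratio was -0.07 beside 0.02 over all genes measured. Slc22a3 of this list, at -0.23, was 2-fold lower in barcode set 1 alone (-1.20, against -0.17 in barcode set 2). Maob, which breaks down monoamines, had the highest ratio of the list at 0.37, and Spr, an enzyme of cofactor synthesis, the lowest at -0.34.

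Among 9 measured serotonergic identity factors, only Insm1, a zinc-finger factor of neuroendocrine and neuronal differentiation, passed 2-fold, at 8.20 CPM in members and 2.39 CPM in other cells (1.78, 1.31 to 2.21). Fev was at 425 and 331 CPM (0.36), and every member had a Fev UMI. The Engrailed genes En1 and En2 had ratios of 0.50 and 0.90, Gata2 0.73 and Lmx1b 0.49. Gata3, Hmx2 and Hmx3 were on the other side of 0, at -0.19, -0.38 and -0.50. Pax5, a factor of the midbrain-hindbrain boundary, was at 73.3 CPM in members and 41.6 CPM in other cells (0.82, 0.68 to 0.96).

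Of 6 measured GABA and glutamate transmitter genes, none was 2-fold higher in members and 2 were 2-fold lower. Gad2 RNA was at 166 CPM in members and 111 CPM in other cells (0.58, 0.49 to 0.67). Members had a Gad2 UMI in 88.2% of cells against 58.3% of other cells, or 80.4% and 50.8% after each cell was thinned to 20000 UMIs. The lowest share was 11.6% in cluster 8. The paper describes Gad2 as enriched in several clusters of these neurons, and as highest in a cluster other than the cluster richest in Gad1. Gad2 RNA is therefore not a trait of the members alone, and 58.3% of other cells had a UMI of it. Slc17a8 RNA was lower, at 71.0 CPM against 162 CPM (-1.19, -1.33 to -1.06), although 69.1% of members and 63.3% of other cells had a UMI of it (52.3% and 53.8% thinned). In single members Slc17a8 ran from 0 to 691 CPM with a median of 33.5, while the highest value in other cells was 1842 CPM. This ratio was uneven: -0.51 in barcode set 1 and -1.48 in barcode set 2, and it was under 2-fold after thinning (-0.92) and with every cell weighted equally (-0.80). Taking each of the 14 clusters without its members, 8 had a higher Slc17a8 level than the members and 6 a lower one, the extremes being cluster 11 (501 CPM) and cluster 2 (8.67 CPM). The vesicular GABA transporter Slc32a1 had 2 UMIs over all members, and the vesicular glutamate transporter Slc17a6 had none. Abat, which breaks down GABA, had a ratio of 0.27, and the GABA transporter Slc6a11 had -1.13 (-1.75 to -0.57), or -0.86 when the members were widened to as many high-scoring cells as cluster 6 holds.

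Gad2 and Slc17a8 were often found in the same member cell. Both had a UMI in 65 of 110 members (59.1%, 49.3 to 68.4%), Gad2 alone in 32, Slc17a8 alone in 11 and neither in 2. In the other cells both were found in 602 (26.9%, 25.0 to 28.8%), where the product of the single shares would be 36.9%, whereas in members that product was 60.9%. Of the members in cluster 6 alone, 59 of 98 had both.

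Over the 10190 genes measured (at least 5 CPM in members or in other cells, rule genes left out), 234 were at least 2-fold higher in members (2.30%) and 208 at least 2-fold lower (2.04%), or 4.34% in either direction. The median log2 ratio was 0.02, with 10% of genes below -0.33 and 10% above 0.39. In both barcode sets separately, 184 genes were at least 2-fold higher (1.81%) and 154 at least 2-fold lower (1.51%). No measured gene was 2-fold higher in one set and 2-fold lower in the other.

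**Figure D2:**
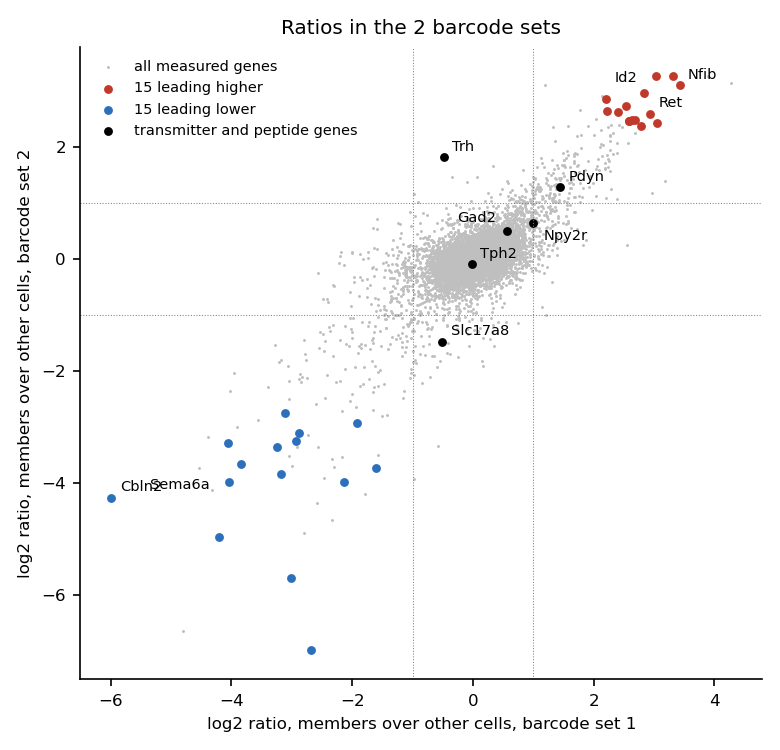
Log2 ratio of members over other cells in barcode set 1 (horizontal) and barcode set 2 (vertical) for each measured gene, with the 15 leading higher genes in red, the 15 leading lower genes in blue, selected transmitter and peptide genes in black, and dotted lines at 2-fold. Leading genes lie in the same corner in both sets because the naming rule asks for it, and Trh lies apart at -0.48 and 1.82.

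Genes that lead the members, by the highest ratio among those 2-fold higher in both barcode sets and with a UMI in at least 30% of members, include Ret, the receptor tyrosine kinase for GDNF-family ligands. Ret was at 185 CPM in members and 28.7 CPM in other cells (2.68, 2.59 to 2.78). It ran from 0 to 510 CPM in single members with a median of 166, and 107 of 110 members had a UMI, against 39.2% of other cells. The highest level in other cells was in cluster 6 at 149 CPM, followed by cluster 5 at 114 CPM, and the share of cells with a UMI was lowest in cluster 1 at 5.00%. Erbb4, the neuregulin receptor, was just past the 15 leading genes at 93.8 and 18.0 CPM (2.38, 2.24 to 2.51). Ret and Erbb4 both had a UMI in 102 members (92.7%, 86.2 to 96.8%) and in 420 other cells (18.8%, 17.2 to 20.4%). The product of the single shares would be 92.9% in members and 13.5% in other cells. Gpr149, an orphan receptor, had the highest ratio of the 15, with 18.0 and 1.94 CPM (3.22, 2.88 to 3.55).

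Transcriptional regulators formed a second part of the leading genes. Id2, an inhibitor of basic helix-loop-helix factors, was at 67.2 CPM in members and 8.63 CPM in other cells (2.96, 2.80 to 3.13), with a UMI in 95 members. Its level ran from 0 to 351 CPM in single members with a median of 51.0, and the highest cluster outside the members was cluster 13 at 37.8 CPM. Nfib, of the nuclear factor I (NFI) family, was at 35.4 and 4.02 CPM (3.14, 2.90 to 3.37), with a UMI in 71 members and 8.48% of other cells. Nfib was highest in cluster 13, at 83.0 CPM in the cells outside the members and 233 CPM in the 8 members of that cluster, and stood at 28.7 CPM in the 98 members of cluster 6. Id2 and Nfib were both found in 64 members (58.2%), where the product of the single shares would be 55.7%.

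The remaining leading genes were of mixed kinds. Sulf2, which removes sulfate groups from heparan sulfate, was at 32.0 and 5.38 CPM (2.57), and Hs3st3a1, which adds sulfate to it, at 9.84 and 1.76 CPM (2.48). Nptx2, a secreted pentraxin that gathers AMPA receptors, was at 31.0 and 4.43 CPM (2.81), and Slc14a1, a urea transporter, at 16.6 and 2.46 CPM (2.75). Plpp4, a lipid phosphatase, was at 26.6 and 3.11 CPM (3.10). Thsd7b, Tmem72, Tmem232 and the transcripts RP23-291B1.2, A730020M07Rik and F930015N05Rik completed the 15, with ratios of 2.39 to 2.60. Slc14a1 had no UMI in the 8 members of cluster 13 and 17.4 CPM in those of cluster 6. In the GENCODE annotation of GRCm38, Hs3st3a1 on the plus strand and F930015N05Rik on the minus strand overlap over 1322 bases at chr11:64435332-64436653, so reads of the pair depend on strand assignment.

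Among the 15 leading lower genes, chosen in the same way with a UMI in at least 30% of other cells, were genes with almost no RNA in members. Rerg, a Ras-like GTPase, had 2 UMIs over all members, or 0.33 CPM against 20.5 CPM (-5.96, counting interval -9.01 to -4.11). Tshz2, a zinc-finger factor, was at 0.66 and 22.3 CPM (-5.09, -6.97 to -3.73). Hs3st4, another heparan sulfate 3-O-sulfotransferase, was at 2.79 and 75.4 CPM (-4.76), and 12 members had a UMI against 56.0% of other cells. Cbln2, a secreted synapse organiser, was at 3.28 and 66.2 CPM (-4.33), and Sema6a, a transmembrane semaphorin, at 1.97 and 38.7 CPM (-4.30). Calb2 (calretinin) stood at 11.0 and 68.5 CPM (-2.64), Cd63 at 8.04 and 92.2 CPM (-3.52), and S100a11 at 10.5 and 74.4 CPM (-2.82). Zfp804a, Crct1, Gpc3, Rasgrf2, Utrn, Pcdh19 and Fgf9 had ratios of -3.65 to -3.01. For Tshz2, all 4 UMIs were in the cluster 13 members, at 17.6 CPM, and none in the members of cluster 6.

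Set beside each cluster's cells outside the members, 6 of the 15 leading higher genes were highest in the members: Gpr149, Id2, Slc14a1, Ret, Tmem232 and A730020M07Rik. For 9 of the 15 the highest cluster was cluster 13, for 5 it was cluster 6 and for 1 cluster 14. Members were above cluster 5 for all 15 but above cluster 13 for only 7. They were above the remaining cluster 6 cells for 14, the exception being Tmem72 (8.69 CPM in members and 10.5 CPM in those cells). Among the 15 leading lower genes, members were below the remaining cluster 6 cells for all 15, and below cluster 5 and cluster 13 for 13 each. No single cluster was the highest for more than 3 of these 15.

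**Figure D3:**
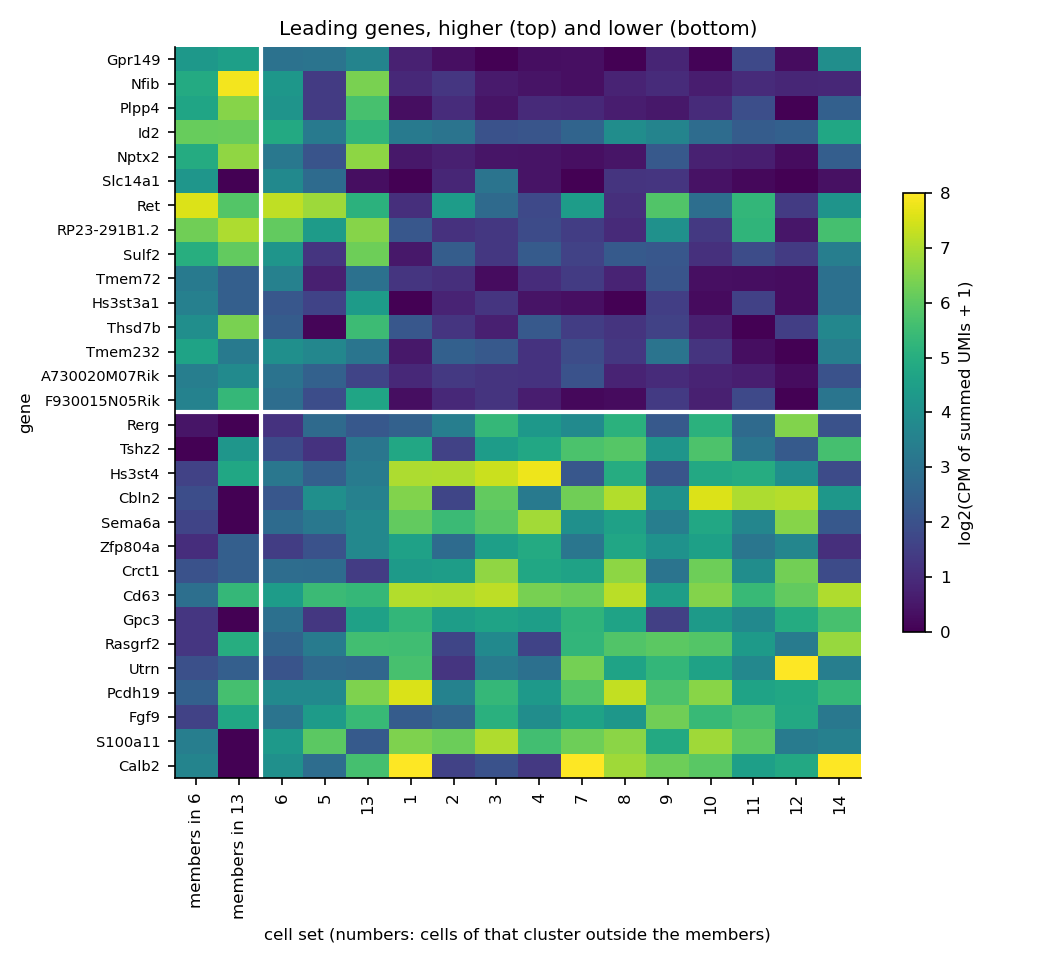
Colour shows log2(CPM + 1) of summed UMIs for the 15 leading higher genes (top) and 15 leading lower genes (bottom) in the 98 members of cluster 6, the 8 members of cluster 13 and, right of the line, the cells of each cluster outside the members. Nfib reaches 233 CPM in the members of cluster 13 and 28.7 CPM in those of cluster 6, while Slc14a1 is at 0 and 17.4 CPM.

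Promoter sequences were read for genes 2-fold higher in both barcode sets, since POU factors are in the rule and among the genes that differ. The windows span 250 bases before to 50 bases after each start in the RefSeq table for GRCm38.p6, which holds 166 windows for 126 of the 184 genes. The octamer ATGCAAAT, a sequence POU factors are known to bind, was searched on both strands and stood in 5 of these windows (3.01%), in none of the 141 windows of the genes 2-fold lower in both sets, in 1.17% of the 10220 windows of measured genes and in 1.74% of all 32851 windows. The 10 windows of the 15 leading higher genes, which cover 9 of them, held no octamer. With 5 windows in all, this is a description of letters and not of binding. The NFI half-site TTGGCA, on both strands, stood in 10.2% of windows of the higher genes, 9.93% of those of the lower genes and 10.8% of those of measured genes. The 5 windows with the octamer belong to Hs3st3b1, a close relative of Hs3st3a1 (6.07 CPM in members and 0.58 CPM in other cells, 3.39), Spp1, encoding osteopontin (13.9 and 2.86 CPM, 2.29), Asb4 (552 and 158 CPM, 1.81), 1110015O18Rik (28.0 and 9.93 CPM) and Col25a1 (373 and 183 CPM, 1.02), which are named here for this motif after their values were seen. They are shown as 60 bases read 5′ to 3′ on the gene's strand, with the octamer or its reverse complement in capitals, at chr11:63922348-63922407 (minus strand), chr5:104435956-104436015, chr6:5383291-5383350, chr3:4798577-4798636 and chr3:130180652-130180711 (plus strand), in that order.
Hs3st3b1: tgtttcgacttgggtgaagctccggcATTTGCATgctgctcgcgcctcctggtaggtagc
Spp1: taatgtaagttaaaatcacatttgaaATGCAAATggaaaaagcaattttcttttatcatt
Asb4: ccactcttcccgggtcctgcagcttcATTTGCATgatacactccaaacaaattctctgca
1110015O18Rik: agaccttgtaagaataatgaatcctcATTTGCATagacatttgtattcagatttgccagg
Col25a1: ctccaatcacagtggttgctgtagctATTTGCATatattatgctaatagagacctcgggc

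Subtype transcription factors differed in both directions: of 29 measured, 8 were at least 2-fold higher and 8 at least 2-fold lower, with a median of 0.11. Over all measured genes these shares were 2.30% and 2.04%, which is also the background for the counts of the other gene lists. Besides Id2 and Nfib, the higher ones included the NFI family members Nfix (42.5 and 10.1 CPM, 2.07) and Nfia (7.38 and 2.36 CPM, 1.64), the zinc-finger genes Zfp536 (2.24) and Zbtb20 (1.04), and the LIM-binding cofactor Ldb2 (2.18). Zbtb20 was abundant at 1156 CPM in members and 561 CPM in other cells (0.99 in barcode set 1), and ran from 304 to 2236 CPM in single members. The lower ones included Nr2f2, an orphan nuclear receptor (2 UMIs in members, -5.99, counting interval -9.03 to -4.13), Rorb (-3.28), Zeb2 (-3.04), Sox14 (-2.60) and Maf (-1.35).

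Close relatives of the rule genes differed in both directions. Pou3f3 was at 52.5 CPM in members and 20.5 CPM in other cells (1.36, 1.18 to 1.52), whereas Pou3f1 was at 1.48 and 7.93 CPM (-2.42, -3.56 to -1.49). Necab2, a neuronal calcium-binding protein, was at 684 and 318 CPM (1.10, but 0.87 in barcode set 1). Bcl11b, Amigo1 and Necab3 had ratios of -0.26, 0.29 and 0.52. Of 7 measured relatives, 2 were at least 2-fold higher and 1 lower.

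Of 15 measured neuropeptide and granin precursors, Pdyn alone was at least 2-fold higher, and 5 were lower. Pdyn, the precursor of dynorphins, was at 116 CPM in members and 45.7 CPM in other cells (1.34, 1.23 to 1.46), with ratios of 1.45 and 1.27 in the barcode sets. Single members ran from 0 to 679 CPM with a median of 70.3, and 87 members had a UMI. Cluster 5 had 225 CPM and cluster 14 had 194 CPM, both above the members, while cluster 1 had 1.11 CPM and a UMI in 4.00% of cells. Trh, thyrotropin-releasing hormone, was found in 42 members at 27.1 CPM against 14.0 CPM (0.95, 0.71 to 1.18). Its direction differed between the barcode sets: 17.2 CPM in members and 24.0 CPM in other cells of set 1, and 30.0 and 8.50 CPM in set 2. Pdyn and Trh were both found in 40 members (36.4%), Pdyn alone in 47 and Trh alone in 2, while in other cells both were found in 138 (6.16%) and Trh alone in 239. The product of the single shares would be 30.2% in members and 7.64% in other cells.

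The 5 lower precursors were Crh, Penk, Nts, Adcyap1 and Vgf. Crh had no UMI in any member, which puts its ratio at -4.37 or below against a floor of 3 UMIs over the members. Penk had 1 UMI (0.16 CPM against 5.67 CPM, counting interval of the ratio -10.4 to -2.63) and Nts had 3 (0.49 and 13.0 CPM, -7.01 to -3.18). Both were concentrated in cluster 13, at 145 CPM for Penk and 351 CPM for Nts in its cells outside the members, and members of cluster 6 had no Penk UMI, which puts its ratio to the other cells without cluster 13 at -0.92 or below. Penk was at -0.35 when the members were widened to as many of the highest-scoring cells as cluster 6 holds, so its low level depends on where the score is limited. Adcyap1 (PACAP) had a ratio of -3.49, and the granin-like Vgf 40.7 CPM against 143 CPM (-1.82). Gal, Npb and Chga were at 0.91, 0.92 and 0.91, and Sst at -0.10 with a UMI in 32 members. In barcode set 1 Gal was at 1.34 and Npb at 1.72, against 0.84 and 0.53 in barcode set 2. With these, 3 precursors were 2-fold higher in set 1, and with Trh 2 were in set 2.

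Among 11 measured peptide receptors, the vasopressin receptor Avpr1a (7.05 and 0.63 CPM, 3.48, 2.91 to 4.03) and the somatostatin receptors Sstr1 (2.17) and Sstr2 (1.59) were at least 2-fold higher. The CRF receptor Crhr2 (-3.82), the orexin receptor Hcrtr2 (-2.57), the relaxin receptor Rxfp1 (-2.02) and the oxytocin receptor Oxtr (-1.72) were lower. Rxfp1 had no UMI in members of barcode set 1, where the floor of 3 UMIs puts its ratio at -0.59 or below. Avpr1a was found in 30 of 110 members and was above every cluster's other cells, of which cluster 13 was the highest at 4.54 CPM. Sstr2 was at 79.2 CPM in the 8 members of cluster 13 and 6.77 CPM in those of cluster 6. Npy2r, the Y2 receptor for neuropeptide Y, was at 33.6 and 19.5 CPM (0.78, 0.57 to 0.99) with a UMI in 72.7% of members and 34.4% of other cells (39.3% and 22.0% thinned). Clusters 7, 10 and 13 were above the members for Npy2r, at 67.5, 58.7 and 42.6 CPM, and cluster 12 had a UMI in 1.83% of cells.

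Of 16 receptors for amines, purines and lipids, Cnr1, Hrh3 and Adra1a were higher and Chrm2 and Hrh1 lower. The cannabinoid receptor Cnr1 was at 36.9 and 9.63 CPM (1.94, 1.73 to 2.14), and the histamine autoreceptor gene Hrh3 at 62.3 and 26.5 CPM (1.24, 1.08 to 1.39). The muscarinic receptor Chrm2 had -1.99 and the histamine receptor Hrh1 -1.10 (-0.72 in barcode set 2), and the adrenergic receptor Adra1a had 1.12 (0.24 in barcode set 1). Of 30 GABA and glutamate receptor subunits, 1 was 2-fold higher and 8 lower around a median of 0.00. The counts were 4 higher and 6 lower in barcode set 1, and 1 and 8 in barcode set 2. Gria3, an AMPA receptor subunit, was at 10.0 and 3.72 CPM (1.43), and Gria1 at 6.72 and 37.0 CPM (-2.46). The NMDA receptor subunit Grin3a (-2.07) and the GABA-A subunits Gabre (-2.29), Gabrq (-1.48) and Gabrg3 (-1.21, but -0.98 in barcode set 1, -0.80 after thinning and -0.75 with the wider set of high-scoring cells) were lower too.

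Ion channel and calcium-binding genes differed in both directions. Of 26 potassium channel genes, Kcnh1 (2.68), Kcnh5 (1.65), Kcnip4 (1.46) and Kcnab1 (1.23) were higher, and Kcnip1 (2 UMIs in members, counting interval -7.16 to -2.25) and Kcnq3 (-1.05) lower. Both Kcnip1 UMIs were in barcode set 2, and in barcode set 1 the floor puts its ratio at -0.97 or below. Kcnh5 was at 0.86 when only members in cluster 6 were kept. Of 23 calcium, sodium, HCN and TRP channel genes, the T-type calcium channel genes Cacna1g (1.11), Cacna1h (1.11) and Cacna1i (1.42) were all at least 2-fold higher, as was the auxiliary subunit Cacna2d2 (140 and 67.7 CPM, 1.05). Cacna2d2 was at 0.98 with the 80 highest-scoring cells and at 0.96 with the wider set, where Cacna1g was at 0.95, Kcnq3 at -0.98 and Trpc7 at -0.97. Cacna1h was at 0.93 after thinning. Cacna1g was at 0.59 after thinning and 0.90 in the members of cluster 6. The cation channel gene Trpc7 was lower, at -1.05. Calb1 (calbindin) was at 259 and 92.3 CPM (1.49, but 0.83 in barcode set 1), and Calb2 at -2.64. Calb1 was at 262 CPM in members of cluster 6 and 13.2 CPM in those of cluster 13. Nos1 (-2.10) and Hpcal1 (-1.34) were lower.

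Guidance and adhesion genes differed in both directions. Of 26 guidance genes 6 were higher and 6 lower, where 2.30% and 2.04% of all measured genes were. The secreted semaphorins Sema3d (2.15), Sema3c (1.11) and Sema3e (1.09), the receptors Plxna4 (163 and 58.0 CPM, 1.49) and Nrp1 (1.00), and Robo1 (1.14) were higher. Several of these lay close to 2-fold: in barcode set 2 Nrp1 was at 0.94, Sema3c at 0.94 and Sema3e at 0.84, so that 3 guidance genes were 2-fold higher there, and in barcode set 1 Robo1 was at 0.98. Sema3c was at 0.87 with the wider set of high-scoring cells. Nrp1 was at 0.82 and Sema3e at 0.98 in the members of cluster 6, and they were at 0.95 and 0.94 after thinning. Nrp2 (-3.50), Sema6a, Ntng1 (-2.37), Unc5c (-2.36), Unc5d (-1.51) and Epha7 (-1.19, but -0.72 in barcode set 1) were lower, so that the neuropilins Nrp1 and Nrp2 differed in opposite directions. Of 37 cadherins and synaptic adhesion genes 7 were higher and 3 lower. The cerebellins Cbln4 (285 and 83.0 CPM, 1.78) and Cbln1 (39.2 and 10.5 CPM, 1.90) were higher while Cbln2 was lower. Every member had UMIs of Cbln4 (32.5 to 914 CPM) and of Pcdh10 (85.5 to 703 CPM, ratio 1.29). Pcdh19 was at 6.07 and 49.4 CPM (-3.02).

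Of 18 measured heparan sulfate genes, 5 were higher and 4 lower, beside the same 2.30% and 2.04% over all measured genes. The 6-O-endosulfatases Sulf1 (10.0 and 2.85 CPM, 1.81) and Sulf2 were both higher, as were Hs3st2 (1.75) and the glypican genes Gpc5 (1.32) and Gpc6 (1.85). Hs3st1 (-1.49), Hs3st4 and Hs3st5 (-2.10), and Gpc3 (-3.48) were lower. The list does not hold Hs3st3a1 (2.48) and Hs3st3b1 (3.39), so of the 3-O-sulfotransferase genes given here 3 were higher and 3 lower. Gpc5 was at 0.97 after thinning. Polymerising and 6-O-sulfating enzymes stayed near 0, with Ext1 at -0.22, Ext2 at 0.13 and Hs6st2 at -0.07. The 10 measured immediate early genes, which report recent activity or dissociation, had no 2-fold difference and a median of -0.25.

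**Figure D4:**
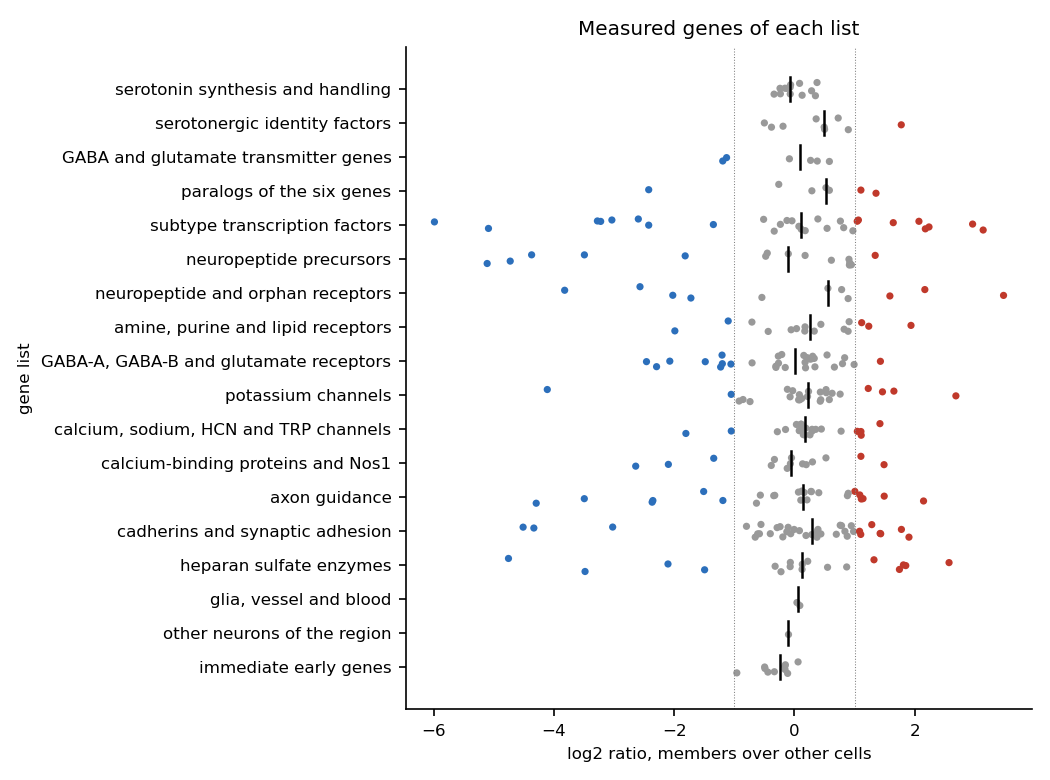
Log2 ratio of members over other cells (horizontal axis) for each measured gene of 18 lists (vertical axis), red for at least 2-fold higher, blue for at least 2-fold lower, and a black bar at each list's median. The 13 serotonin genes lie between -0.34 and 0.37, whereas the 29 subtype transcription factors reach from -5.99 to 3.14.

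Among the 3 sets of similar cells compared, the remaining 70 cells of cluster 6 had the fewest genes past 2-fold. Of 10163 genes measured in this pair, 67 (0.659%) were at least 2-fold higher in members and 51 (0.502%) at least 2-fold lower. These values include the 8 members of cluster 13. With only the 98 members of cluster 6 the counts were 58 and 61, of which 51 and 49 are among those of all members, and Slc17a8 was then at 57.5 and 32.0 CPM (0.85). Members had more Sstr1 (6.56 and 1.25 CPM, 2.39, 1.05 to 4.09), Thsd7b (2.06), Cacna1g (2.04, 0.88 to 3.44), Nptx2 (1.91), Hs3st2 (1.90) and Gpr149 (1.37). Slc17a8 was higher as well, at 71.0 and 32.0 CPM (1.15), unlike in the comparison with all other cells. Members had less Prph, encoding peripherin (29.0 and 80.5 CPM, -1.47), Hs3st5 (-1.17) and Cd63 (-1.33). Atg2a was at -2.59, but 3 of the remaining cluster 6 cells held 128, 120 and 93 of its 434 UMIs there, and a UMI was found in 53.6% of members and 48.6% of those cells. Vessel genes were among those lower in members: Flt1 had 38 UMIs in the remaining cluster 6 cells and 0 in members, and Rgs5 95 and 1. In cluster 6 those UMIs came from 2 cells for each gene.

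Against the 177 cells of cluster 5 outside the members, 258 of 10127 genes were at least 2-fold higher (2.55%) and 166 lower (1.64%). Ldb2 (17.4 and 0.27 CPM, 6.00, 4.42 to 8.30) and Hs3st2 (9.35 and 0.27 CPM, 5.11, 3.49 to 7.43) had 3 UMIs each in cluster 5. Sulf2 (4.56), Nfib (4.44), Plpp4 (4.03) and the prolactin receptor gene Prlr (43.3 and 1.81 CPM, 4.58) were higher too. Nos1 (5.74 and 100 CPM, -4.12), Crhr2 (-4.47), Kit (14.9 and 94.1 CPM, -2.66) and Rspo1 (-3.50) were lower. Both sets had Ret and Pdyn, with 185 and 114 CPM of Ret and 116 and 225 CPM of Pdyn.

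Against the 136 cells of cluster 13 outside the members, which had a median of 28627.5 UMIs, 409 of 10632 genes were at least 2-fold higher (3.85%) and 888 lower (8.35%). Trh (2 UMIs in cluster 13, 5.82, counting interval 3.95 to 8.88), Gal (2 UMIs, 5.42, 3.54 to 8.48) and Pdyn (116 and 6.93 CPM, 4.06) were higher. Cxcl14 (7.87 and 187 CPM, -4.57), Adcyap1 (-5.89) and the tachykinin receptor gene Tacr1 (-5.22) were lower.

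The 8 members that clustered with cluster 13 differed from the rest in their serotonin genes, and the rule took them in through the same 6 genes. They had 0 to 12 Tph2 UMIs each, or 189 CPM together against 2840 CPM in the 98 members of cluster 6. Slc6a4 was at 185 and 2772 CPM, Fev at 176 and 435 CPM, and Slc17a8 at 466 and 57.5 CPM. All 8 had at least 9 UMIs of Slc17a8. Pdyn was at 4.40 and 114 CPM, and Necab2 at 79.2 and 700 CPM. Their median depth was 29036 UMIs against 59659 in members of cluster 6, and the part of depth in these differences was not tested. Restricting the members to cluster 6 gave 227 higher and 224 lower genes, of which 217 and 201 are among the 234 and 208 of all members.

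Among the manually sorted cells, the rostral Npy2r::cre cells had the highest median score for the rule genes. These are full-length read counts of single cells, scaled to CPM, with 756872 to 7664103 reads per cell, and the labels name no animal for a cell, so each group is given without a test. The score is the mean z of log2(CPM + 1) of the 6 genes over the 70 cells. The 9 rostral Npy2r::cre cells had a median of 1.17, from -0.74 to 2.26, and held 4 of the 5 highest scores among all 70 cells. Their ages divide them: the 3 cells of day 77 had a median of -0.42 (-0.74 to 1.46) and the 6 cells of day 87 a median of 1.53 (-0.29 to 2.26), so the group's median rests on the day 87 cells. Depth differs as well: replicates 4 to 7, all of day 87, had 756872 to 1489171 reads, whereas the day 77 cells had 5215246 to 5592105. These shallower cells scored from -0.29 to 2.26. Replicates 8 and 9, also of day 87, scored 1.17 and 1.99 with 7664103 and 5391457 reads. Whether an age stands for an animal or a collection is not labelled, and the parts of age and depth in the scores were not tested. The other 7 groups had medians of -0.46 to 0.09, and the ranges overlap. A single dorsolateral Sert::cre cell, replicate 10, had the second highest score at 2.24, while that group's median was -0.12.

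The leading genes were then scored in the manual cells, which had no part in choosing either the members or the genes. The mean z of the 14 leading higher genes present in this table had a median of 0.43 in rostral Npy2r::cre cells (-0.35 to 2.25) and of -0.33 to 0.01 in the other groups. The mean z of the 15 leading lower genes had a median of -0.75 (-1.03 to 0.29) against -0.14 to 0.59. By age, the higher-gene medians were -0.092 at day 77 and 0.80 at day 87, and the lower-gene medians 0.16 and -0.76. Over the 70 cells, Pearson's r between the rule score and the higher-gene score was 0.73 (Spearman's rho 0.39), and with the lower-gene score -0.74 (rho -0.64), as a description of cells that share their group and normalisation. Without the dorsolateral cell these were 0.66 and -0.72 over 69 cells, and without the rostral Npy2r::cre cells 0.67 and -0.60 over 61 cells.

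**Figure D5:**
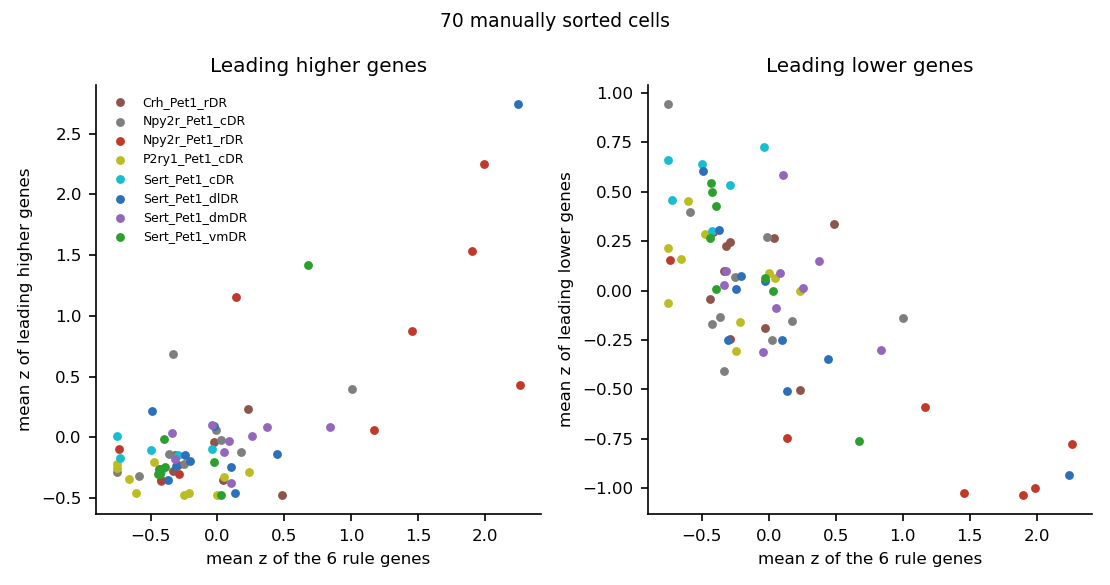
Each point is 1 of 70 manually sorted cells, coloured by group, with the mean z of the 6 rule genes on the horizontal axis and the mean z of the leading higher genes (left) or leading lower genes (right) on the vertical axis. Rostral Npy2r::cre cells take 4 of the 5 highest rule scores and 6 of the 10 lowest lower-gene scores, beside a dorsolateral Sert::cre cell at 2.24 and 2.74 in the left panel.

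Single genes varied widely between the 9 rostral Npy2r::cre cells. Ret had reads in 8 of them, from 0 to 242 CPM with a median of 83.0, against 1 of 10 P2ry1::cre cells and 6 of 10 caudal Npy2r::cre cells. Gad2 had reads in 7, up to 336 CPM, and Pdyn in 6, up to 269 CPM. Slc17a8 had reads in 5, up to 401 CPM, and that highest cell (replicate 3) had a rule score of -0.74 and no Gad2 reads. Tph2 ranged from 5592 to 16343 CPM in the 9 cells. Npy2r itself had reads in 6 of the 9, at no more than 9.40 CPM.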

How the data were processed

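The authors deposited UMI counts per gene and cell from the droplet libraries and read counts per gene for the manually sorted cells; the submitters' processing notes name Cell Ranger 3.0.2, STAR 2.5.4 and R 3.5.3. Before deposit the authors had removed glial outliers, cells low in Fev or in ribosomal genes, cells high in mitochondrial genes and cells of outlying depth from the droplet table, so levels of Fev and of glial genes are limited by that filter. The members and gene lists were chosen with earlier results of these data known. Cells were clustered with Seurat 5.3.0 in R 4.3.3 (2000 variable genes, components 1 to 50 without 6 and 7, 20 neighbours, resolution 0.9). Doublets were called with Scrublet in scanpy 1.11.5 at a rate of 5% and kept in the main values. Counts were summed over cells and compared as CPM in Python 3.11.15 (numpy 2.4.6, scipy 1.17.1, pandas 2.3.3), with exact conditional intervals of ratios and Clopper-Pearson intervals of shares. A gene without UMIs in members was set to a floor of 3 UMIs over the group. Genes with at least 5 CPM in either set counted as measured, and 2-fold as different. Thinning to 20000 UMIs left out 3 members and 50 other cells. The text names the 15 genes with the highest and the 15 with the lowest ratio among those 2-fold different in both barcode sets and with a UMI in at least 30% of cells of the higher side, the genes of the lists, Npy2r, Slc17a8, Gad2, Tph2, Slc6a4, Fev, Id2, Pdyn, Trh and Pax5. Genes named against clusters 5, 6 and 13, and Erbb4, were chosen after their values were seen. Some genes of the lists are counted but not reported here by name. On simulated summed counts with 200 genes of at least 5 CPM changed by more than 2-fold, all 200 had the right direction. The simulation held no variation between cells and no choice of members by their genes. It therefore checks the calculation of the ratio only. Manual counts were scaled to CPM and transformed as log2(CPM + 1).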

Additional observations from a re-analysis of the deposited data

Results flagged for a closer look

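In 28 checks of scores and gene levels within groups of manually sorted cells, 7 had a cell apart from the rest. The flag was set at a 5% level per check. The checks share cells and related scores, so the number of flags cannot be compared with that level. The dorsolateral Sert::cre cell replicate 10 had a rule-gene score of 2.24, with the next cell of its group at 0.44, and a higher-gene score of 2.74, with the next at 0.21. The ventromedial Sert::cre cell replicate 6 had a rule-gene score of 0.67 (next 0.030), a higher-gene score of 1.42 (next -0.015) and a lower-gene score of -0.76 (next -0.0025). The caudal Npy2r::cre cell replicate 5 had a rule-gene score of 1.01, with the next at 0.18. Among rostral Npy2r::cre cells, replicate 1 had a log2(CPM + 1) of Ret of 0, with the next cell at 4.28. In the droplet cells, Trh had a log2 ratio of 1.82 in barcode set 2 and -0.48 in barcode set 1, and the difference was not tested.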

How the results depend on the processing

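In barcode set 1 alone, 374 genes were at least 2-fold higher and 344 lower, without a filter on low levels 974 and 903, and with at least 20 CPM 123 and 80. The other settings gave 215 to 245 higher and 180 to 256 lower genes. Of the 111 genes past 2-fold that are followed across settings here, which leaves out list genes not reported by name, 111 kept their direction in each setting and 101 to 111 stayed past 2-fold. Of those lost, 2 in barcode set 1 (Rxfp1 and Kcnip1) and 1 without cluster 13 (Penk) had no UMI in the members compared, so the floor of 3 UMIs could not show a 2-fold difference. Over all called genes fewer stayed past 2-fold: 190 of 234 higher and 160 of 208 lower in barcode set 1, and 188 and 179 after thinning. The cause of these shifts was not tested. Between 86 and 104 of the 110 members were kept when the score was computed after thinning, without each rule gene or within each barcode set. The cluster with most members held 88.2 to 90.9% of them under other clusterings, but at resolution 0.7 it had 351 cells and members were 28.5% of it. For rostral Npy2r::cre cells of day 77 alone, the rule-gene median moved to -0.42 and the lower-gene median to 0.16. The cells of the droplet table carry no animal, so the values have no replicate check, and genes with few UMIs have wide counting intervals. Restricting members to cluster 6 and leaving cluster 13 out of the other cells, comparing only those members with the rest of cluster 6, and splitting the manual cells by age were chosen after seeing the data. No paired analysis was possible because no test was made and the droplet cells carry no replicate number.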
